A study of Homo sapiens with 9 samples.

Results

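The genes described here encode the chains of integrins, the receptors that hold a cell to its matrix, and of laminins, the large matrix proteins on which several integrins dock. They were taken from the count table by symbol: every row named ITGA plus a letter or number, ITGB plus a digit up to 8, or LAMA, LAMB or LAMC plus a digit up to 5. The rule found 38 of the 67140 genes listed, namely 18 integrin alpha chains, 8 integrin beta chains, 5 laminin alpha chains, 4 laminin beta chains and 3 laminin gamma chains. The cells were DMS273, an established human small cell lung cancer line, in which genes had been disrupted with a CRISPRv2 vector. ATG7/SQSTM1 KO cells were targeted at both genes, ATG7 KO cells were targeted at ATG7 alone, and control cells carried a scrambled guide and are labelled wild type. Each genotype had 3 RNA-seq libraries. ATG7 is an enzyme needed to build autophagosomes, and SQSTM1 encodes p62, a receptor that brings cargo to them and is itself degraded there. Whether a knockout is a single clone or a pool of cells is not given in the sources used here.

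An integrin is a pair of one alpha and one beta chain, and the pair decides which matrix protein is bound. With ITGB1, the chains ITGA3, ITGA6 and ITGA7 make laminin receptors, whereas ITGA1, ITGA2, ITGA10 and ITGA11 make collagen receptors. ITGA5 and the ITGAV pairs read the RGD motif of fibronectin and vitronectin. A laminin is a trimer of one alpha, one beta and one gamma chain, in which the alpha chain carries the main integrin-binding domains. These genes are studied in small cell lung cancer because adhesion to matrix through ITGB1 has been linked to drug resistance of such cells.

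The 9 libraries held 28675576 to 34222098 counts, and no library stood apart in depth. Levels are given as CPM, the counts scaled to library size by TMM, or per kilobase of exon (RPKM) where genes are compared with each other, and a mean of either is given ± SD (n = 3). The ATG7 transcript, the check of the first label, stood at 11.2, 10.4 and 10.2 CPM in ATG7/SQSTM1 KO, 12.0, 9.99 and 13.0 CPM in ATG7 KO and 28.1, 26.4 and 26.8 CPM in control. The SQSTM1 transcript stood at 55.3, 48.8 and 51.6 CPM in ATG7/SQSTM1 KO, 388, 396 and 389 CPM in ATG7 KO and 380.2, 375 and 373 CPM in control, so the libraries labelled as double knockout were lowest in it and did not overlap the other groups. Of 10 neuroendocrine markers, 9 could be tested and 9 were lower in ATG7 KO than in control, with a summed level of 885 to 919.6 CPM in ATG7/SQSTM1 KO, 492 to 500.2 CPM in ATG7 KO and 807 to 841 CPM in control. GRP was under 1 CPM in every group, whereas NEUROD1 averaged 237 ± 6.8 CPM in ATG7/SQSTM1 KO, 73.3 ± 0.93 CPM in ATG7 KO and 194 ± 3.9 CPM in control. Fibroblast markers summed to 469 to 488 CPM in ATG7/SQSTM1 KO, 815 to 860.4 CPM in ATG7 KO and 217 to 234 CPM in control, with 7 of 10 tested called higher and the others not called in ATG7 KO against control, 7 higher and 2 lower in ATG7/SQSTM1 KO against control, and 3 higher and 6 lower in ATG7/SQSTM1 KO against ATG7 KO. THY1 was under 1 CPM in every group, whereas COL3A1 averaged 150 ± 7.4 CPM in ATG7/SQSTM1 KO, 327 ± 7.0 CPM in ATG7 KO and 75.1 ± 1.5 CPM in control. In bulk libraries fewer cells expressing a gene and less RNA per cell cannot be told apart.

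Integrin and laminin transcripts were more often higher than lower in ATG7 KO, with ITGA3, ITGA2, ITGA5 and LAMA5 the most changed of the members above 10 CPM in every library, while ITGA9, ITGA7, ITGA6 and LAMA3 were lower. In ATG7 KO against control, 17 of the 32 members that could be tested rose and 7 fell at an adjusted p under 0.05, beside 28.4% of the 18847 tested genes called higher and 28.3% called lower, 56.7% in all. A change of 2-fold or more was seen upward in 6 of them and downward in 2, beside 4.22% and 8.28% of tested genes. The median log2 change of the tested members was 0.42, against -0.02 over all tested genes. The adjusted p-values here and below come from edgeR's quasi-likelihood test with Benjamini-Hochberg adjustment over all tested genes, and the error beside a log2 change is its standard error (SE). The marker sums given above moved between the same groups, and their part in these counts was not tested.

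Against control, 9 members rose and 7 fell in ATG7/SQSTM1 KO, beside 19.0% and 19.6% of tested genes (38.6% in all). The largest rise that passed the test was that of LAMA5, and 1 member, ITGAM, fell 2-fold or more, beside 1.66% of tested genes. The member median was 0.03, against -0.01 over all tested genes. Set directly against ATG7 KO, ATG7/SQSTM1 KO had 7 members higher and 19 lower, beside 30.5% and 29.9% of tested genes (60.5% in all), with a member median of -0.43 against 0.02 over all tested genes. Differences of 2-fold or more numbered 3 upward and 8 downward, beside 9.07% and 3.86% of tested genes. ITGA10, ITGAX and ITGB2 are among these 8 and among the 19 lower members, and ITGAX is among the 7 that fell against control. They passed the filter on low counts, described below, through groups where they were higher, so their part here is partly fixed by it. Any pair of these comparisons shares a group of libraries, so their values for a gene are not independent of each other. ITGA8, ITGAE, ITGB4 and LAMA2 were called in no comparison.

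**Figure D1:**
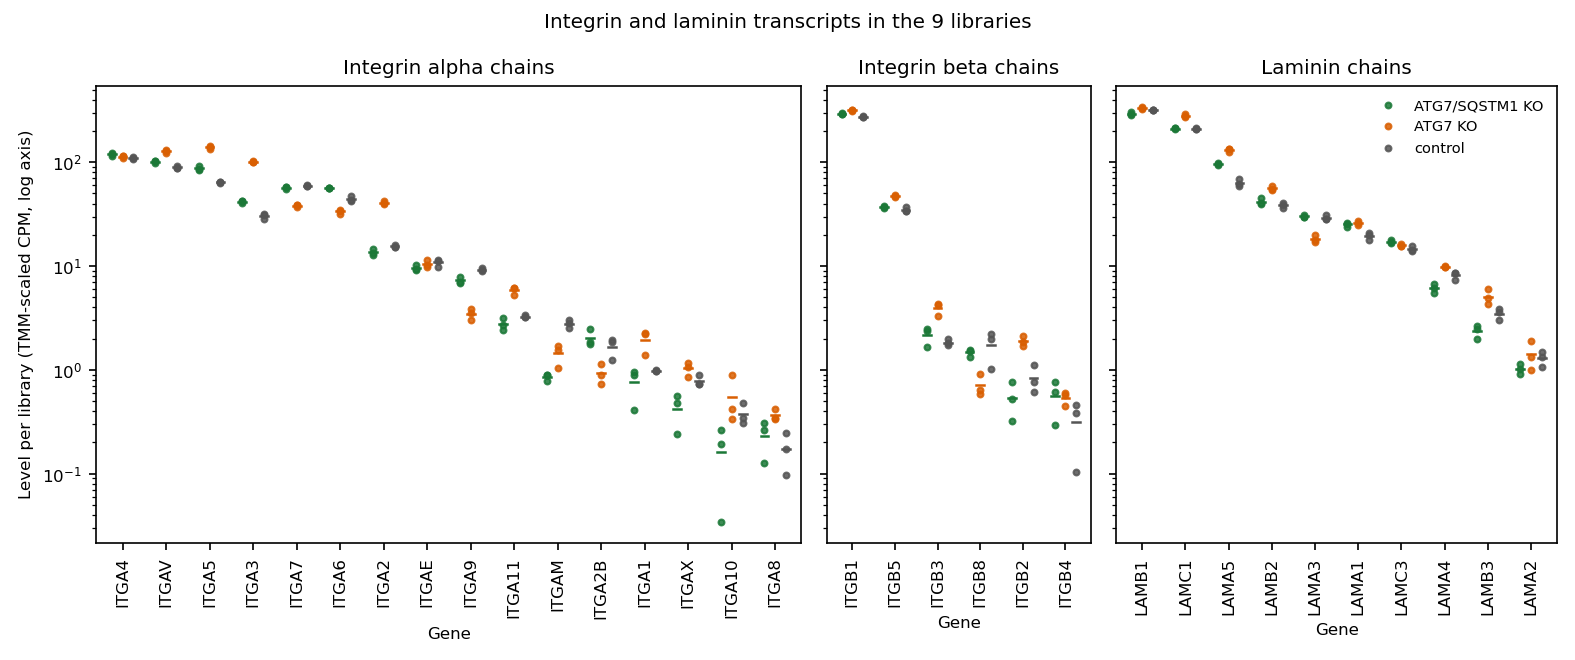
Level of each of the 32 tested members in each library, as TMM-scaled CPM on a log axis, with ATG7/SQSTM1 KO, ATG7 KO and control side by side for each gene and a short bar at the group mean. The ATG7 KO points of ITGA2, ITGA3, ITGA5 and LAMA5 lie above both other groups.

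**Figure D2:**
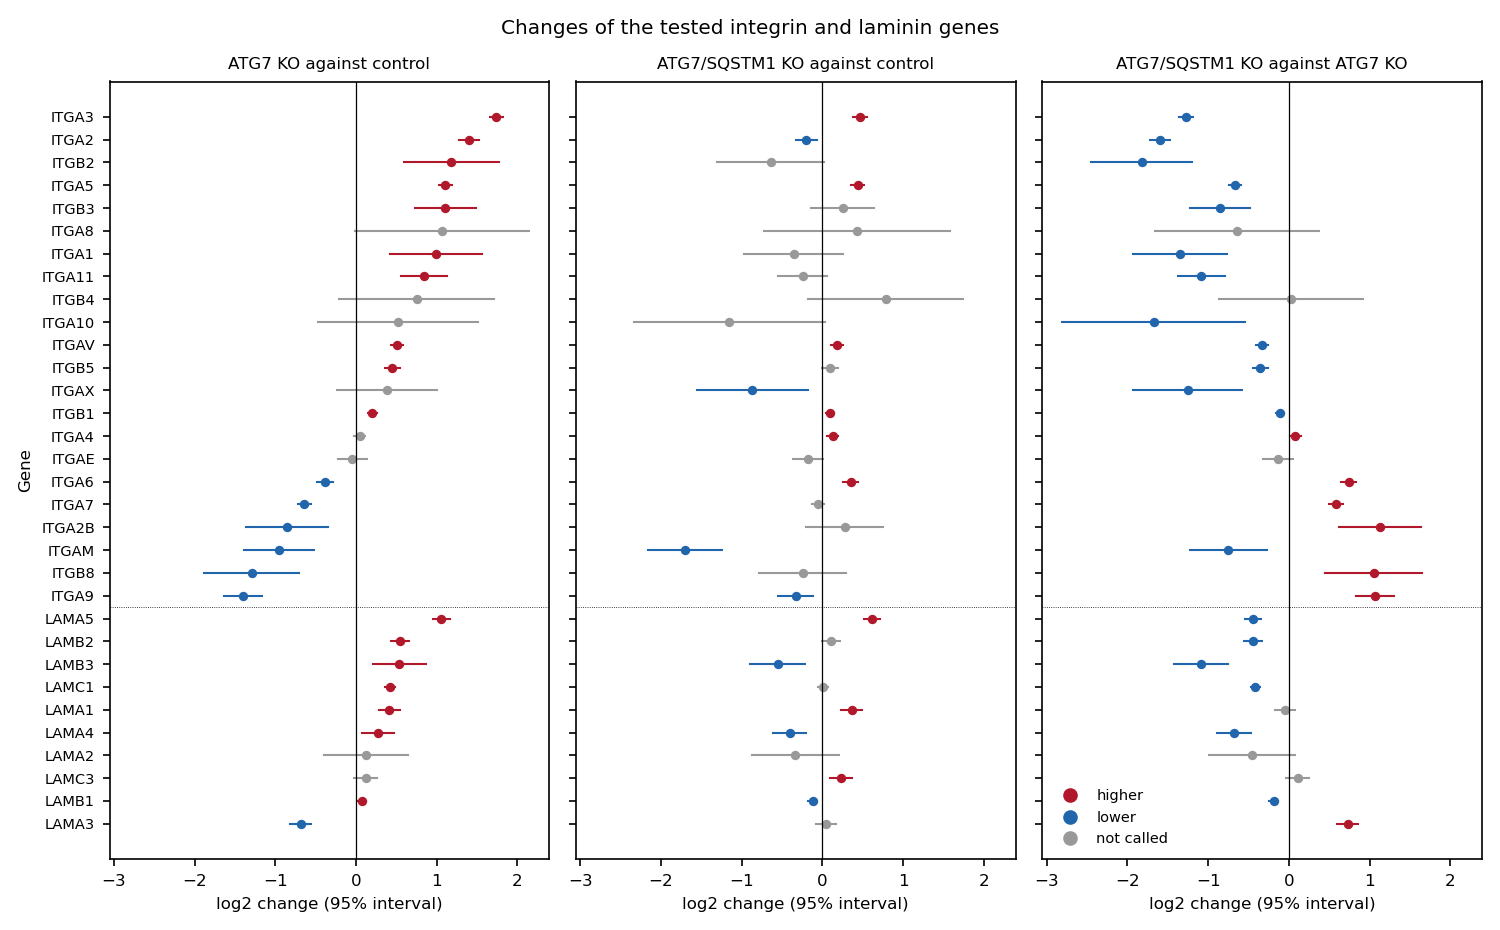
Fitted log2 change of each tested member in the 3 comparisons, with its 95% interval, integrins above the dotted line and laminins below it. Red points are called higher, blue ones lower and grey ones not called, with 17 red points in ATG7 KO against control and 19 blue ones in ATG7/SQSTM1 KO against ATG7 KO.

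The filter on low counts set how many members could be tested. The cutoff was the CPM to which 10 counts amount in a library of median size. Of the 32, 27 stood at or above that CPM in every library of all 3 groups. ITGAX and ITGB2 did so in 2 groups and ITGA8, ITGA10 and ITGB4 in 1, so a difference in these 5 is partly fixed by the filter. The 6 members left out had few reads everywhere. LAMB4 had 0 to 6 counts in ATG7/SQSTM1 KO, 7 to 22 in ATG7 KO and 0 to 7 in control. ITGAD, ITGAL and ITGB7, chains of leukocyte integrins, had at most 4 counts in any library. ITGB6, an epithelial partner of ITGAV, had 3 counts in 1 ATG7 KO library and 0 in the 8 others. A count of 0 allows up to 3 counts, or 0.0875 to 0.103 CPM in these libraries.

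Among the laminin receptors, ITGA3 rose while ITGA6 and ITGA7 fell in ATG7 KO. ITGA3 (chr17:50055968-50090481 in GRCh38, plus strand), whose pair with ITGB1 binds laminin-332 and laminin-511, had 40.8, 42.2 and 42.4 CPM in ATG7/SQSTM1 KO, 99.9, 102 and 101 CPM in ATG7 KO and 28.6, 31.5 and 30.7 CPM in control. The 3 groups did not overlap, with ATG7 KO highest and control lowest. The log2 change was 1.74 ± 0.041 (adjusted p = 1.15e-18) in ATG7 KO against control, a 3.34-fold level, and 4.09% of tested genes changed more. It was 0.47 ± 0.042 (adjusted p = 1.62e-08) in ATG7/SQSTM1 KO against control and -1.27 ± 0.040 (adjusted p = 1.11e-16) in ATG7/SQSTM1 KO against ATG7 KO.

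ITGA6, the laminin-binding integrin chain that also pairs with ITGB4 in hemidesmosomes, had 55.9, 56.3 and 56.1 CPM in ATG7/SQSTM1 KO, 32.0, 33.7 and 35.0 CPM in ATG7 KO and 42.2, 46.8 and 42.8 CPM in control. Here ATG7/SQSTM1 KO was highest and ATG7 KO lowest, again with no overlap. Against control, the log2 change of ITGA6 was -0.39 ± 0.047 (adjusted p = 3.68e-07) in ATG7 KO and 0.35 ± 0.045 (adjusted p = 2.07e-06) in ATG7/SQSTM1 KO, and between the knockouts it was 0.74 ± 0.046 (adjusted p = 9.39e-12). ITGA7, known best as the laminin receptor of muscle, had 58.2, 55.1 and 57.7 CPM in ATG7/SQSTM1 KO, 38.7, 36.9 and 38.4 CPM in ATG7 KO and 60.2, 58.7 and 58.7 CPM in control. The ATG7 KO libraries lay below all others, with a log2 change of -0.64 ± 0.040 (adjusted p = 9.32e-12) against control and of 0.59 ± 0.040 (adjusted p = 3.47e-11) in ATG7/SQSTM1 KO against ATG7 KO. ATG7/SQSTM1 KO was not called different from control in ITGA7, with a 95% interval of -0.13 to 0.03 around -0.05. ITGB4 stood between 0.103 and 0.765 CPM in all 9 libraries and was called in no comparison.

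Per kilobase of exon, the leading laminin-binding chain was ITGA7 in ATG7/SQSTM1 KO and in control, and ITGA3 in ATG7 KO. In ATG7/SQSTM1 KO the lead of ITGA7 over ITGA6 was narrow, at 8.94 ± 0.26 against 8.59 ± 0.029 RPKM. Of the summed RPKM of ITGA3, ITGA6 and ITGA7, ITGA3 made up 19.6 ± 0.45% in ATG7/SQSTM1 KO, 48.2 ± 0.61% in ATG7 KO and 16.2 ± 0.59% in control. The share of ITGA7 was 41.0 ± 0.85% in ATG7/SQSTM1 KO, 27.8 ± 0.84% in ATG7 KO and 48.7 ± 1.6% in control. ITGA6 held 39.4 ± 0.47% in ATG7/SQSTM1 KO, 24.0 ± 0.79% in ATG7 KO and 35.2 ± 1.2% in control. The sum of the 3 chains was 21.8 ± 0.21 RPKM in ATG7/SQSTM1 KO, 21.4 ± 0.27 RPKM in ATG7 KO and 19.1 ± 0.42 RPKM in control.

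**Figure D3:**
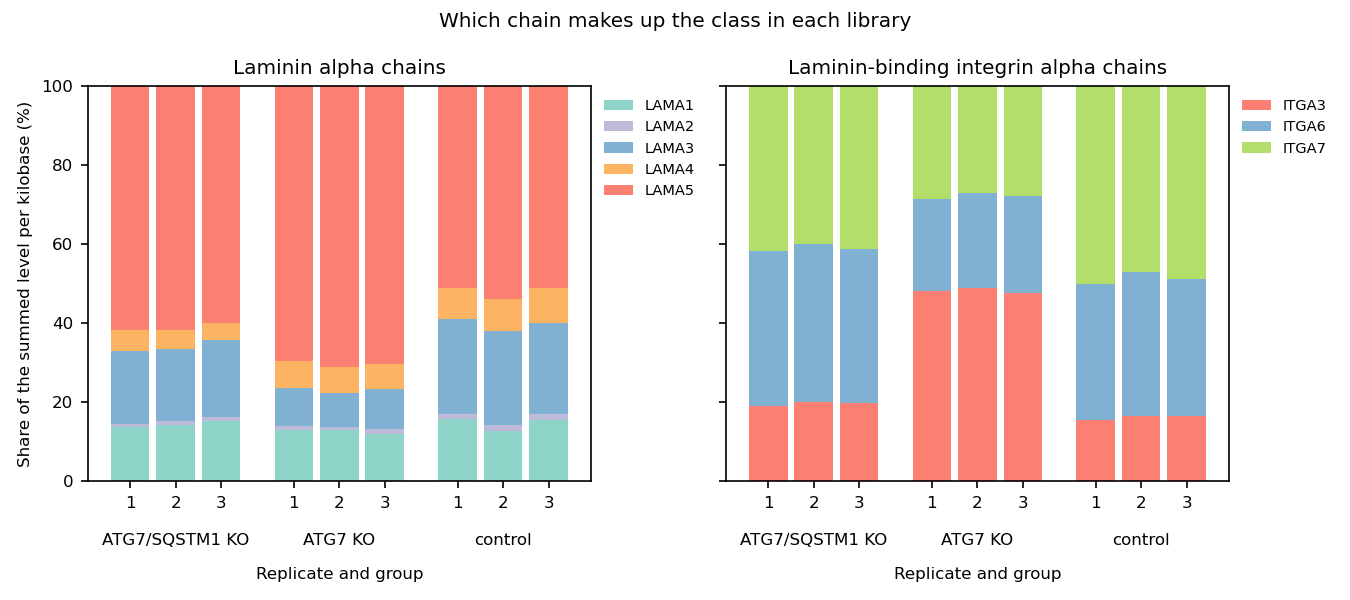
Make-up of the laminin alpha chains (left) and of the laminin-binding integrin alpha chains (right) in each library, as the share of the summed RPKM, with ATG7/SQSTM1 KO, ATG7 KO and control from left to right. In ATG7 KO the LAMA5 and ITGA3 segments are the tallest of the 3 groups, and the LAMA3, ITGA6 and ITGA7 segments are the shortest.

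Promoter sequence is shown for members that passed the test in ATG7 KO against control with a change of at least 2-fold. Of 8 such members, 4 had an entry in the RefSeq table (GRCh38.p14), which holds 250 bases before to 50 bases after a gene's start, and 26 of the 38 members had one. ITGA2 lies at chr5:52989102-52989401 (plus strand), ITGA5 at chr12:54419217-54419516 (minus strand), LAMA5 at chr20:62367263-62367562 (minus strand) and ITGB8, the one of the 4 that fell, at chr7:20330650-20330949 (plus strand). Capitals mark every match, on either strand, to the GC box GGGCGG, the AP-1 core TGANTCA and the TEAD core GGAATG.
ITGA2: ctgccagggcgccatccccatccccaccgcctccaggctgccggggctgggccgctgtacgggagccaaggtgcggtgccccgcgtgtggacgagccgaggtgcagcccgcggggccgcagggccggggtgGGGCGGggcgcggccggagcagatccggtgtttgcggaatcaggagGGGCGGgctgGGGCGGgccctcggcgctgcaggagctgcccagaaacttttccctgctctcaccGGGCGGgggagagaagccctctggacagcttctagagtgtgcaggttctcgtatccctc
ITGA5: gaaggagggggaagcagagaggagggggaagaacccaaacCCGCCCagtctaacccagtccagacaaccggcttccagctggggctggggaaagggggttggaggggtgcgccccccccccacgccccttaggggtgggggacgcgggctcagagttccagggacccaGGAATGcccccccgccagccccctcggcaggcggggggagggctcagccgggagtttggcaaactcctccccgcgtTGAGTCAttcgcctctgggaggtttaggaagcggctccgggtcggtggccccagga
LAMA5: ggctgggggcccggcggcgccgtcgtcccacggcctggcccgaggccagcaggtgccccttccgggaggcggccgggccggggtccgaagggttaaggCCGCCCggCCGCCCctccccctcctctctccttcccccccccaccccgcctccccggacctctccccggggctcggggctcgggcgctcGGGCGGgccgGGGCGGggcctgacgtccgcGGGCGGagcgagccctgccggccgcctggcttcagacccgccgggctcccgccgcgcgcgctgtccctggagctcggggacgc
ITGB8: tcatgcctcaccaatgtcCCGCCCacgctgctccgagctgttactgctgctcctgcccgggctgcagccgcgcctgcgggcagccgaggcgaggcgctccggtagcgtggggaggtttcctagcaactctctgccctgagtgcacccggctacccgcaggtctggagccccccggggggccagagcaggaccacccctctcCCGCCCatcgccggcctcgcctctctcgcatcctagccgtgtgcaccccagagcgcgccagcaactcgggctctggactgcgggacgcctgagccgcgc
All 4 windows held at least 1 GC box, with 4 in ITGA2, 5 in LAMA5, 2 in ITGB8 and 1 in ITGA5, and GC content was 72.7% in ITGA2, 82.7% in LAMA5, 71.7% in ITGB8 and 69.3% in ITGA5. The GC box, a motif of Sp1-type factors, was in 44.6% of the 27305 promoters of the table. Of the 4 windows, ITGA5 alone held the AP-1 core, 6 bases before the RefSeq start, and the TEAD core, 82 bases before it. These motifs occurred in 7.76% and 14.0% of promoters. The GENCODE start of ITGA5, at chr12:54419460, lies farther upstream, so by the gene coordinates given below both motifs fall inside the gene. GENCODE also starts ITGB8 (chr7:20330702) and ITGA2 (chr5:52989326) farther upstream. The GC boxes at -49 in ITGB8 and -9 in ITGA2, counted from the RefSeq start, thus fall inside those genes. No pair of motifs overlapped. A match is a description of these letters and not a bound site.

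All 4 collagen-receptor alpha chains had their highest mean in ATG7 KO. For ITGA10 this is partly fixed by the filter on low counts, whose cutoff it met in every library of ATG7 KO alone. ITGA2 (chr5:52989326-53094779, plus strand), the main collagen-binding chain of epithelial cells and platelets, had 12.7, 13.4 and 14.5 CPM in ATG7/SQSTM1 KO, 40.2, 42.3 and 40.0 CPM in ATG7 KO and 15.4, 15.2 and 15.9 CPM in control. The 3 groups did not overlap, and ATG7 KO lay well above both others. In ATG7 KO against control ITGA2 rose 2.64-fold, a log2 change of 1.40 ± 0.059 (adjusted p = 1.67e-14). In ATG7/SQSTM1 KO it was lower than in ATG7 KO, with a log2 change of -1.60 ± 0.060 (adjusted p = 2.38e-15), and slightly lower than in control with a log2 change of -0.20 ± 0.063 (adjusted p = 0.0166). That small difference from control lost its call without ATG7/SQSTM1 KO replicate 1 (adjusted p = 0.0898), without control replicate 3 (0.0607) and under DESeq2 (0.0543).

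ITGA11, a collagen I receptor of fibroblasts, had 2.68, 2.40 and 3.15 CPM in ATG7/SQSTM1 KO, 6.14, 6.14 and 5.26 CPM in ATG7 KO and 3.23, 3.34 and 3.20 CPM in control. ATG7 KO lay above the other groups, with a log2 change of 0.84 ± 0.14 (adjusted p = 2.08e-05) against control and of -1.09 ± 0.14 (adjusted p = 7.04e-07) in ATG7/SQSTM1 KO against ATG7 KO. ITGA1, a receptor for collagen IV, was low, at 0.962, 0.412 and 0.892 CPM in ATG7/SQSTM1 KO, 2.25, 2.21 and 1.40 CPM in ATG7 KO and 0.977, 0.965 and 0.993 CPM in control. Its ATG7 KO libraries lay above all others. It was higher in ATG7 KO than in control (log2 change 1.00 ± 0.27, adjusted p = 0.00366) and lower in ATG7/SQSTM1 KO than in ATG7 KO (log2 change -1.35 ± 0.28, adjusted p = 0.000254). ITGA10, the chondrocyte collagen receptor, had 0.262, 0.0343 and 0.191 CPM in ATG7/SQSTM1 KO, 0.887, 0.335 and 0.415 CPM in ATG7 KO and 0.305, 0.345 and 0.480 CPM in control, with 1 high ATG7 KO library and overlap between ATG7 KO and control. ITGA10 was called only between the knockouts, with a log2 change of -1.68 ± 0.54 (adjusted p = 0.00987), and lost that call without ATG7 KO replicate 1 (adjusted p = 0.113) or ATG7/SQSTM1 KO replicate 2 (0.0542). None of ITGA1, ITGA10 and ITGA11 was called in ATG7/SQSTM1 KO against control, where their log2 changes were -0.36, -1.15 and -0.25. The fibroblast markers given above moved with these genes in ATG7 KO, and their part in the result was not tested. ITGA1 shares 475 exon bases with PELO on the same strand, so reads there cannot be assigned to one gene.

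Both leading alpha chains of the fibronectin and vitronectin receptors rose in ATG7 KO. ITGA5 (chr12:54395261-54419460, minus strand), which with ITGB1 forms the classical fibronectin receptor, had 84.0, 86.1 and 91.7 CPM in ATG7/SQSTM1 KO, 139, 135 and 142 CPM in ATG7 KO and 63.3, 64.9 and 65.1 CPM in control. Groups did not overlap, and ATG7/SQSTM1 KO lay between ATG7 KO and control. ITGA5 was 2.16-fold higher in ATG7 KO than in control, with a log2 change of 1.11 ± 0.037 (adjusted p = 3.54e-16), and 1.35-fold higher in ATG7/SQSTM1 KO than in control, with a log2 change of 0.44 ± 0.038 (adjusted p = 7.61e-09). Between the knockouts its log2 change was -0.67 ± 0.037 (adjusted p = 1.05e-12). ITGAV, the shared alpha chain of several RGD receptors that bind vitronectin or latent TGF-beta, had 102, 99.0 and 104 CPM in ATG7/SQSTM1 KO, 129, 131 and 124 CPM in ATG7 KO and 88.4, 93.0 and 88.3 CPM in control. The order of groups was the same as for ITGA5, with log2 changes of 0.51 ± 0.035 (adjusted p = 4.67e-11) for ATG7 KO and 0.18 ± 0.035 (adjusted p = 0.000320) for ATG7/SQSTM1 KO against control, and of -0.33 ± 0.034 (adjusted p = 3.21e-08) between the knockouts.

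Of the beta chains that pair with ITGAV, ITGB3 and ITGB5 rose and ITGB8 fell in ATG7 KO. ITGB5, a vitronectin-receptor chain, had 36.8, 37.8 and 36.6 CPM in ATG7/SQSTM1 KO, 46.3, 48.4 and 47.5 CPM in ATG7 KO and 33.7, 33.5 and 36.9 CPM in control. ATG7 KO stood above the other groups, with a log2 change of 0.45 ± 0.045 (adjusted p = 2.41e-08) against control and -0.36 ± 0.045 (adjusted p = 5.74e-07) in ATG7/SQSTM1 KO against ATG7 KO. ATG7/SQSTM1 KO and control overlapped, with an uncalled log2 change of 0.09 that was called without control replicate 3 (0.14, adjusted p = 0.0207). ITGB3, which also pairs with ITGA2B on platelets, had 2.48, 1.65 and 2.39 CPM in ATG7/SQSTM1 KO, 3.31, 4.23 and 4.28 CPM in ATG7 KO and 1.80, 1.96 and 1.73 CPM in control. ATG7 KO lay above the other groups, which overlapped, and 51.6% of the ITGB3 exon length is shared with AC068234.1, a gene with 0 counts in every library. ITGB3 was 2.15-fold higher in ATG7 KO than in control (log2 change 1.10 ± 0.18, adjusted p = 2.16e-05) and lower in ATG7/SQSTM1 KO than in ATG7 KO (log2 change -0.85 ± 0.18, adjusted p = 0.000284). ITGB8, whose pair with ITGAV activates latent TGF-beta, had 1.34, 1.51 and 1.56 CPM in ATG7/SQSTM1 KO, 0.580, 0.905 and 0.638 CPM in ATG7 KO and 2.20, 2.00 and 1.02 CPM in control. Its ATG7 KO libraries were below all others, with a log2 change of -1.29 ± 0.28 (adjusted p = 0.000493) against control and 1.05 ± 0.29 (adjusted p = 0.00310) in ATG7/SQSTM1 KO against ATG7 KO. Neither ITGB3 nor ITGB8 was called in ATG7/SQSTM1 KO against control, where the log2 changes were 0.25 and -0.24.

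The other RGD-binding chains were scarce. ITGA8, a nephronectin receptor, stood between 0.0961 and 0.415 CPM in the 9 libraries and was called in no comparison. Its ATG7 KO and control libraries did not overlap. It met the cutoff of the low-count filter in every library of ATG7 KO alone, so that separation is partly fixed by the filter. ITGA2B, the platelet fibrinogen-receptor chain, had 2.45, 1.78 and 1.85 CPM in ATG7/SQSTM1 KO, 0.887, 0.738 and 1.15 CPM in ATG7 KO and 1.92, 1.86 and 1.25 CPM in control. The ATG7 KO libraries were the lowest, and the other groups overlapped. ITGA2B was lower in ATG7 KO than in control (log2 change -0.85 ± 0.25, adjusted p = 0.00530) and higher in ATG7/SQSTM1 KO than in ATG7 KO (log2 change 1.13 ± 0.24, adjusted p = 0.000369). Of 6 platelet markers, PF4, PPBP and GP9 were at 0 in every library, neither of the 2 tested ones was called in any comparison, and their sum was 1.92 to 2.13 CPM in ATG7/SQSTM1 KO, 1.71 to 2.39 CPM in ATG7 KO and 1.95 to 2.48 CPM in control.

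ITGA4 and ITGA9 are related chains that bind VCAM1, fibronectin or tenascin. ITGA4, the most abundant alpha chain per kilobase in control, had 121, 116 and 123 CPM in ATG7/SQSTM1 KO, 111, 115 and 115 CPM in ATG7 KO and 107, 109.6 and 113 CPM in control. ATG7/SQSTM1 KO lay just above the other groups, which overlapped. ITGA4 was not called in ATG7 KO, where the 95% interval of its log2 change was -0.03 to 0.12. It was slightly higher in ATG7/SQSTM1 KO than in control (log2 change 0.13 ± 0.035, adjusted p = 0.00570). The difference from ATG7 KO (log2 change 0.08 ± 0.035, adjusted p = 0.0478) was near the threshold and lost its call in 11 of 16 alternative settings, among them the fits without control replicate 1 or 2, without any 1 of the ATG7 KO libraries and without ATG7/SQSTM1 KO replicate 1 or 3 (adjusted p = 0.0532 to 0.239). ITGA9 had 7.87, 6.90 and 7.04 CPM in ATG7/SQSTM1 KO, 3.04, 3.52 and 3.86 CPM in ATG7 KO and 9.49, 9.13 and 8.87 CPM in control. Its groups did not overlap, and ATG7 KO was lowest. The log2 change of ITGA9 was -1.40 ± 0.11 (adjusted p = 7.78e-10) in ATG7 KO against control and 1.06 ± 0.11 (adjusted p = 5.1e-08) in ATG7/SQSTM1 KO against ATG7 KO. ATG7/SQSTM1 KO was lower than control by less, with a log2 change of -0.33 ± 0.11 (adjusted p = 0.0165), and that call was lost without ATG7/SQSTM1 KO replicate 2 (adjusted p = 0.0642), ATG7/SQSTM1 KO replicate 3 (0.0540) or control replicate 1 (0.0668). The neuroendocrine markers given above were lowest in ATG7 KO, as were ITGA6, ITGA7 and ITGA9, and their part in the result was not tested. The antisense gene ITGA9-AS1 shares 535 exon bases with ITGA9, and the strand setting of the counting is not given in the sources used here.

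ITGAM, ITGB2 and ITGAX, chains of leukocyte integrins, were present at about 1 to 3 CPM or less. ITGAM, the alpha chain of the complement receptor Mac-1, had 0.787, 0.892 and 0.892 CPM in ATG7/SQSTM1 KO, 1.57, 1.71 and 1.05 CPM in ATG7 KO and 2.81, 3.03 and 2.53 CPM in control. Groups did not overlap, with ATG7/SQSTM1 KO lowest and control highest. ITGAM fell by 1.70 on the log2 scale in ATG7/SQSTM1 KO against control (adjusted p = 2.3e-06), by 0.95 in ATG7 KO against control (0.000518) and by 0.75 in ATG7/SQSTM1 KO against ATG7 KO (0.00736). Its partner ITGB2 differed in direction, with 0.525, 0.755 and 0.319 CPM in ATG7/SQSTM1 KO, 1.71, 1.84 and 2.11 CPM in ATG7 KO and 0.610, 0.758 and 1.12 CPM in control. ATG7 KO lay above the other groups, which overlapped. ITGB2 was higher in ATG7 KO than in control (log2 change 1.18 ± 0.28, adjusted p = 0.00114) and lower in ATG7/SQSTM1 KO than in ATG7 KO (log2 change -1.82 ± 0.30, adjusted p = 1.69e-05). Against control, ITGB2 in ATG7/SQSTM1 KO was not called at -0.64, and was called without ATG7/SQSTM1 KO replicate 2 (-0.96, adjusted p = 0.0415). The antisense gene ITGB2-AS1 shares 303 exon bases with ITGB2, 4.46% of its exon length, and had 16 to 18 counts in ATG7/SQSTM1 KO, 64 to 73 in ATG7 KO and 9 to 25 in control, and without strand the reads of the pair cannot be told apart.

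ITGAX, another partner of ITGB2, had 0.554, 0.240 and 0.478 CPM in ATG7/SQSTM1 KO, 1.06, 1.17 and 0.861 CPM in ATG7 KO and 0.732, 0.896 and 0.736 CPM in control. ATG7/SQSTM1 KO lay below the other groups, which overlapped. ITGAX was lower in ATG7/SQSTM1 KO than in ATG7 KO (log2 change -1.26 ± 0.32, adjusted p = 0.00185), and its difference from control (log2 change -0.87 ± 0.33, adjusted p = 0.0407) lost its call in 10 of the 15 alternatives in which it could be fitted, among them the fit with replicate number as a block (adjusted p = 0.0568) and the fits without any 1 of the control libraries, without ATG7 KO replicate 1 and without ATG7/SQSTM1 KO replicate 2 or 3 (0.0512 to 0.174). ITGAE, the chain of intraepithelial T cells that binds E-cadherin, stood at 9.18, 9.40 and 10.1 CPM in ATG7/SQSTM1 KO, 11.5, 9.73 and 10.3 CPM in ATG7 KO and 11.3, 9.82 and 11.4 CPM in control. Its groups overlapped, and it was called in no comparison. ITGAE shares 427 exon bases with HASPIN on the opposite strand. Of 11 leukocyte markers, 5 were tested, all 5 were higher in ATG7 KO than in control, and their sum over the list was 7.62 to 9.21 CPM in ATG7/SQSTM1 KO, 15.6 to 16.6 CPM in ATG7 KO and 7.04 to 7.82 CPM in control. CD3E and LYZ were at 0 in every library. Their part in the values of ITGAM, ITGB2 and ITGAX was not tested.

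ITGB1 (chr10:32900319-33005792, minus strand), the partner of most alpha chains named above, was the most abundant integrin chain per kilobase. It had 289, 294 and 297 CPM in ATG7/SQSTM1 KO, 318, 312 and 320.3 CPM in ATG7 KO and 271, 281 and 273 CPM in control. The 3 groups did not overlap, but the differences were small, with a log2 change of 0.20 ± 0.026 (adjusted p = 6.5e-07) for ATG7 KO and 0.09 ± 0.026 (adjusted p = 0.00643) for ATG7/SQSTM1 KO against control, and -0.11 ± 0.026 (adjusted p = 0.000760) between the knockouts. Scaled by library totals alone, the value between the knockouts was -0.07. ITGB1 made up 88.2 ± 0.16% in ATG7/SQSTM1 KO, 85.9 ± 0.51% in ATG7 KO and 88.3 ± 0.58% in control of the summed RPKM of the beta chains.

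Among the laminin alpha chains, LAMA5 rose and LAMA3 fell in ATG7 KO. LAMA5 (chr20:62307955-62367312, minus strand), the alpha chain of laminin-511 and laminin-521 in most adult epithelial basement membranes, had 97.1, 98.4 and 93.5 CPM in ATG7/SQSTM1 KO, 126, 134 and 133 CPM in ATG7 KO and 58.6, 68.7 and 61.7 CPM in control. The groups did not overlap, and both knockouts lay above control. The log2 change was 1.06 ± 0.049 (adjusted p = 7.06e-12) in ATG7 KO and 0.61 ± 0.049 (adjusted p = 3.5e-08) in ATG7/SQSTM1 KO against control, or 2.08-fold and 1.53-fold, and -0.44 ± 0.048 (adjusted p = 3.66e-07) in ATG7/SQSTM1 KO against ATG7 KO. LAMA3, the alpha chain of laminin-332, had 29.5, 29.9 and 31.2 CPM in ATG7/SQSTM1 KO, 17.9, 17.0 and 19.7 CPM in ATG7 KO and 28.1, 31.4 and 28.4 CPM in control. ATG7 KO lay below both other groups, with a log2 change of -0.69 ± 0.063 (adjusted p = 5.39e-09) against control and 0.73 ± 0.062 (adjusted p = 1.53e-09) in ATG7/SQSTM1 KO against ATG7 KO. ATG7/SQSTM1 KO and control overlapped in LAMA3, with a log2 change of 0.04 and a 95% interval of -0.08 to 0.17. LAMA5 shares 244 exon bases, 1.71% of its exon length, with ADRM1 on the opposite strand.

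LAMA1, the alpha chain of embryonic laminin-111, was higher in both knockouts than in control, with 24.0, 25.3 and 26.2 CPM in ATG7/SQSTM1 KO, 26.0, 27.1 and 25.0 CPM in ATG7 KO and 20.1, 18.0 and 20.6 CPM in control. The log2 change was 0.41 ± 0.063 (adjusted p = 8.57e-06) in ATG7 KO and 0.36 ± 0.062 (adjusted p = 7.79e-05) in ATG7/SQSTM1 KO, and the knockouts overlapped, with an interval of -0.17 to 0.08 for their difference. LAMA4, found in vascular and mesenchymal basement membranes, had 6.73, 6.14 and 5.51 CPM in ATG7/SQSTM1 KO, 9.79, 9.96 and 9.76 CPM in ATG7 KO and 7.42, 8.51 and 8.48 CPM in control. The groups did not overlap, with ATG7 KO highest. LAMA4 was lower in ATG7/SQSTM1 KO than in control (log2 change -0.41 ± 0.10, adjusted p = 0.00258) and than in ATG7 KO (log2 change -0.68 ± 0.099, adjusted p = 3.97e-06). Its rise in ATG7 KO (log2 change 0.27 ± 0.097, adjusted p = 0.0204) was not called without control replicate 1 (adjusted p = 0.0883). LAMA2, the muscle and nerve laminin chain, stood between 0.904 and 1.88 CPM and was called in no comparison, although between the knockouts it was called without ATG7 KO replicate 2 (-0.66, adjusted p = 0.0399). Of 8 endothelial markers, 4 were tested and all 4 were higher in ATG7 KO than in control, beside 28.4% of tested genes. VWF and EMCN, at 0.0640 to 0.153 and 0.0961 to 0.366 CPM in control, passed the filter on low counts through groups where they were higher. The count of 4 is therefore partly fixed by the filter. The list summed to 0.828 to 1.52 CPM in ATG7/SQSTM1 KO, 4.81 to 5.52 CPM in ATG7 KO and 2.05 to 2.41 CPM in control. The part of these markers in LAMA4 was not tested.

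As shares of the summed RPKM of the 5 laminin alpha chains, LAMA5 made up 61.2 ± 1.0% in ATG7/SQSTM1 KO, 70.4 ± 0.75% in ATG7 KO and 52.0 ± 1.5% in control. LAMA3 made up 18.7 ± 0.70% in ATG7/SQSTM1 KO, 9.50 ± 0.70% in ATG7 KO and 23.6 ± 0.53% in control. LAMA1 made up 14.4 ± 0.68% in ATG7/SQSTM1 KO, 12.6 ± 0.63% in ATG7 KO and 14.6 ± 1.7% in control. The sum of the alpha chains was 11.0 ± 0.12 RPKM in ATG7/SQSTM1 KO, 13.0 ± 0.36 RPKM in ATG7 KO and 8.46 ± 0.46 RPKM in control.

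The beta and gamma chains of the common trimers, LAMB1, LAMB2 and LAMC1, were abundant in every group. LAMC1, the gamma chain of most laminins, had 213, 208 and 212 CPM in ATG7/SQSTM1 KO, 273, 289.5 and 282 CPM in ATG7 KO and 209, 212 and 209 CPM in control. ATG7 KO stood above both other groups, with a log2 change of 0.42 ± 0.027 (adjusted p = 1.99e-11) against control and -0.42 ± 0.027 (adjusted p = 2.23e-11) in ATG7/SQSTM1 KO against ATG7 KO. ATG7/SQSTM1 KO and control overlapped, and the interval of their difference in LAMC1 was -0.05 to 0.06. LAMB2, the beta chain of laminin-521, had 45.0, 40.3 and 39.3 CPM in ATG7/SQSTM1 KO, 55.0, 54.6 and 59.5 CPM in ATG7 KO and 36.6, 40.4 and 39.1 CPM in control. ATG7 KO was highest, and the other groups overlapped. LAMB2 rose in ATG7 KO (log2 change 0.54 ± 0.053, adjusted p = 3.26e-08) and was lower in ATG7/SQSTM1 KO than in ATG7 KO (log2 change -0.44 ± 0.053, adjusted p = 4.72e-07), with an uncalled 0.10 in ATG7/SQSTM1 KO against control. LAMB1, the beta chain of laminin-111 and laminin-511, had 291, 285 and 304 CPM in ATG7/SQSTM1 KO, 327, 342 and 334 CPM in ATG7 KO and 318, 317 and 321 CPM in control. The groups lay close together without overlap, ATG7/SQSTM1 KO lowest. LAMB1 was slightly lower in ATG7/SQSTM1 KO than in control (log2 change -0.12 ± 0.028, adjusted p = 0.00155) and than in ATG7 KO (log2 change -0.19 ± 0.028, adjusted p = 4.12e-06). The LAMB1 difference between ATG7 KO and control (log2 change 0.07 ± 0.028, adjusted p = 0.0361) ended with scaling by library totals alone (0.03, adjusted p = 0.415), and also without ATG7 KO replicate 2 (0.114), control replicate 2 (0.0834) or control replicate 3 (0.0554).

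LAMB3, the beta chain of laminin-332, had 2.62, 1.99 and 2.49 CPM in ATG7/SQSTM1 KO, 4.26, 5.97 and 4.91 CPM in ATG7 KO and 3.05, 3.82 and 3.59 CPM in control. Groups did not overlap, and the order was ATG7 KO, control and ATG7/SQSTM1 KO from high to low. Its log2 change was 0.54 ± 0.16 (adjusted p = 0.00627) in ATG7 KO against control, -0.55 ± 0.17 (adjusted p = 0.0106) in ATG7/SQSTM1 KO against control and -1.09 ± 0.16 (adjusted p = 5.35e-06) between the knockouts. The call in ATG7 KO against control was lost without ATG7 KO replicate 2 (adjusted p = 0.0538) and that in ATG7/SQSTM1 KO against control without ATG7/SQSTM1 KO replicate 2 (0.0605) or control replicate 2 (0.0502). Of 9 basal and airway epithelial markers, KRT17 and TP63 were tested and both were higher in ATG7 KO than in control, the list summed to 3.09 to 3.41 CPM in ATG7/SQSTM1 KO, 12.0 to 13.1 CPM in ATG7 KO and 3.05 to 4.07 CPM in control, DSG3 and SCGB1A1 were at 0 in every library, and their part in LAMB3 was not tested. LAMC3, a gamma chain of a few tissues such as retina and brain, had 16.7, 17.0 and 17.7 CPM in ATG7/SQSTM1 KO, 16.3, 15.5 and 15.8 CPM in ATG7 KO and 14.4, 15.5 and 13.9 CPM in control. ATG7/SQSTM1 KO lay above the other groups, which overlapped. LAMC3 was higher in ATG7/SQSTM1 KO than in control (log2 change 0.23 ± 0.067, adjusted p = 0.00888) and was not called in ATG7 KO (0.12, interval -0.02 to 0.26).

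The order of the alpha chains per kilobase of exon differed between genotypes. In ATG7/SQSTM1 KO, ITGA4 led at 15.2 ± 0.49 RPKM (SD, n = 3), followed by ITGAV at 12.4 ± 0.29 and ITGA5 at 11.5 ± 0.52 RPKM, whose libraries overlapped, and by ITGA7 and ITGA6 at 8.94 ± 0.26 and 8.59 ± 0.029 RPKM. In ATG7 KO, ITGA5 led at 18.3 ± 0.48 RPKM, then came ITGAV at 15.6 ± 0.42, ITGA4 at 14.4 ± 0.32 and ITGA3 at 10.3 ± 0.13 RPKM, while ITGA2 and ITGA6 overlapped at 5.16 ± 0.16 and 5.14 ± 0.23 RPKM. In control the order began with ITGA4 at 13.9 ± 0.42, ITGAV at 10.9 ± 0.33, ITGA7 at 9.29 ± 0.13 and ITGA5 at 8.50 ± 0.13 RPKM, and ITGA3 was at 3.09 ± 0.15 RPKM. ITGB1 led the beta chains in every group, at 48.8 ± 0.67 RPKM in ATG7/SQSTM1 KO, 52.7 ± 0.73 in ATG7 KO and 45.8 ± 0.86 in control, and LAMB1 and LAMC1 led the laminins, at 36.0 ± 1.2 and 25.1 ± 0.28 RPKM in ATG7/SQSTM1 KO, 41.1 ± 0.93 and 33.5 ± 0.99 in ATG7 KO and 39.2 ± 0.25 and 25.0 ± 0.19 in control.

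Other genes of integrin adhesion were taken from 4 lists, whose counts stand beside the shares of all tested genes called in each comparison, 28.4% higher and 28.3% lower in ATG7 KO against control, 19.0% and 19.6% in ATG7/SQSTM1 KO against control, and 30.5% and 29.9% in ATG7/SQSTM1 KO against ATG7 KO. The adhesome list holds the proteins that couple integrins to actin and to kinases inside the cell. All 40 of its genes were tested, and 25 rose and 6 fell in ATG7 KO against control (median log2 change 0.31), 21 rose and 4 fell in ATG7/SQSTM1 KO against control (0.13), and 7 were higher and 25 lower in ATG7/SQSTM1 KO than in ATG7 KO (-0.23), against all-gene medians of -0.02, -0.01 and 0.02. TNS3, a tensin that links integrins to actin, averaged 67.5 ± 1.1 CPM in ATG7/SQSTM1 KO, 139 ± 0.75 CPM in ATG7 KO and 56.7 ± 3.2 CPM in control, and its log2 change was 1.30 ± 0.038 (adjusted p = 4.27e-17) in ATG7 KO against control. The actin regulator VASP changed by 1.02 ± 0.044 (adjusted p = 2.27e-14), the cross-linker ACTN1 by 0.64 ± 0.029 (adjusted p = 3.36e-14) and filamin FLNA by 0.56 ± 0.027 (adjusted p = 1.78e-13) in the same comparison. KANK1, a talin-binding protein at the rim of adhesion sites, was lower in ATG7/SQSTM1 KO than in control, with a log2 change of -0.90 ± 0.083 (adjusted p = 1.86e-08).

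Of the membrane partners of integrins, which include tetraspanins, 11 of 12 were tested, and 8 rose in ATG7 KO against control, with the others not called (median 0.30). In ATG7/SQSTM1 KO 7 were higher and 3 lower than in control (0.11), and 2 were higher and 9 lower than in ATG7 KO (-0.48). The count of 2 was 1 without ATG7 KO replicate 2, ATG7/SQSTM1 KO replicate 2 or ATG7/SQSTM1 KO replicate 3. The urokinase receptor PLAUR averaged 8.85 ± 0.83 CPM in ATG7/SQSTM1 KO, 17.4 ± 1.4 CPM in ATG7 KO and 4.54 ± 0.64 CPM in control, with a log2 change of 1.93 ± 0.11 (adjusted p = 1.06e-12) in ATG7 KO against control. The tetraspanin CD9 changed by 1.46 ± 0.078 (adjusted p = 7.81e-13) in ATG7 KO and by 0.82 ± 0.079 (adjusted p = 4.5e-08) in ATG7/SQSTM1 KO against control. CD82, another tetraspanin, was lower in ATG7/SQSTM1 KO than in ATG7 KO, with a log2 change of -1.83 ± 0.10 (adjusted p = 1.11e-12), and so was caveolin CAV1, with a log2 change of -1.02 ± 0.049 (adjusted p = 1.12e-13).

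Ligands of integrins other than laminins had 21 of 26 genes tested, of which 14 rose and 2 fell in ATG7 KO against control (median 1.10). In ATG7/SQSTM1 KO 11 were higher and 4 lower than in control (0.26), and 2 were higher and 11 lower than in ATG7 KO (-0.17). Fibronectin, FN1, the ligand of ITGA5, fell below control in ATG7/SQSTM1 KO, with a log2 change of -0.95 ± 0.037 (adjusted p = 6.05e-14), and the direct difference from ATG7 KO was -2.50 ± 0.037 (adjusted p = 5.24e-21). Tenascin, TNC, a ligand of ITGA9, averaged 13.4 ± 0.21 CPM in ATG7/SQSTM1 KO, 67.3 ± 5.3 CPM in ATG7 KO and 27.6 ± 2.1 CPM in control, and was lower in ATG7/SQSTM1 KO than in ATG7 KO by a log2 change of -2.33 ± 0.064 (adjusted p = 5.91e-16). Periostin, POSTN, a ligand of the ITGAV pairs, averaged 120.5 ± 2.3 CPM in ATG7/SQSTM1 KO, 81.5 ± 1.6 CPM in ATG7 KO and 16.6 ± 0.87 CPM in control. Against control POSTN changed by 2.29 ± 0.042 (adjusted p = 2.56e-20) in ATG7 KO and by 2.86 ± 0.042 (adjusted p = 1.42e-21) in ATG7/SQSTM1 KO, and CCN1, another ITGAV ligand, changed by 1.64 ± 0.049 (adjusted p = 3.83e-16) in ATG7/SQSTM1 KO. COL1A1, COL3A1 and POSTN are also in the fibroblast list given above, whose part in these counts was not tested.

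Of the other basement membrane genes and laminin receptors, 21 of 23 were tested. In ATG7 KO 12 rose and 4 fell against control (median 0.18), in ATG7/SQSTM1 KO 11 rose and 2 fell against control (0.08), and 8 were higher and 8 lower in ATG7/SQSTM1 KO than in ATG7 KO (0.01). The counts between the knockouts stand beside 30.5% higher and 29.9% lower over all tested genes, near the shares in the list. COL4A2, of the ubiquitous collagen IV network, averaged 136 ± 6.3 CPM in ATG7/SQSTM1 KO, 61.5 ± 0.93 CPM in ATG7 KO and 62.9 ± 2.6 CPM in control, and rose in ATG7/SQSTM1 KO against control by a log2 change of 1.12 ± 0.040 (adjusted p = 4.12e-15), while COL4A1, its head-to-head neighbour, rose by 0.67 ± 0.042 (adjusted p = 6.39e-11). COL4A4, which with COL4A3 belongs to the collagen IV network of kidney and lung, averaged 25.1 ± 1.7 CPM in ATG7/SQSTM1 KO, 6.81 ± 0.78 CPM in ATG7 KO and 32.8 ± 2.3 CPM in control. COL4A4 changed by -2.27 ± 0.082 (adjusted p = 2.6e-15) in ATG7 KO against control and by 1.89 ± 0.083 (adjusted p = 5.7e-14) in ATG7/SQSTM1 KO against ATG7 KO, and COL4A3 by 2.72 ± 0.14 (adjusted p = 3.18e-13) between the knockouts. BCAM, the Lutheran receptor for LAMA5, averaged 14.6 ± 1.4 CPM in ATG7/SQSTM1 KO, 24.0 ± 0.18 CPM in ATG7 KO and 6.93 ± 0.85 CPM in control. BCAM changed by 1.79 ± 0.087 (adjusted p = 1.6e-13) in ATG7 KO and by 1.08 ± 0.089 (adjusted p = 3.89e-09) in ATG7/SQSTM1 KO against control. SDC4, a syndecan co-receptor at focal adhesions, averaged 61.4 ± 2.6 CPM in ATG7/SQSTM1 KO, 130.0 ± 4.7 CPM in ATG7 KO and 39.8 ± 1.4 CPM in control, and changed by 1.71 ± 0.042 (adjusted p = 1.76e-18) in ATG7 KO against control and by -1.08 ± 0.040 (adjusted p = 1.89e-15) in ATG7/SQSTM1 KO against ATG7 KO. AGRN, a heparan sulfate proteoglycan that binds laminin, changed by 0.68 ± 0.028 (adjusted p = 1.43e-14) in ATG7 KO.

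**Figure D4:**
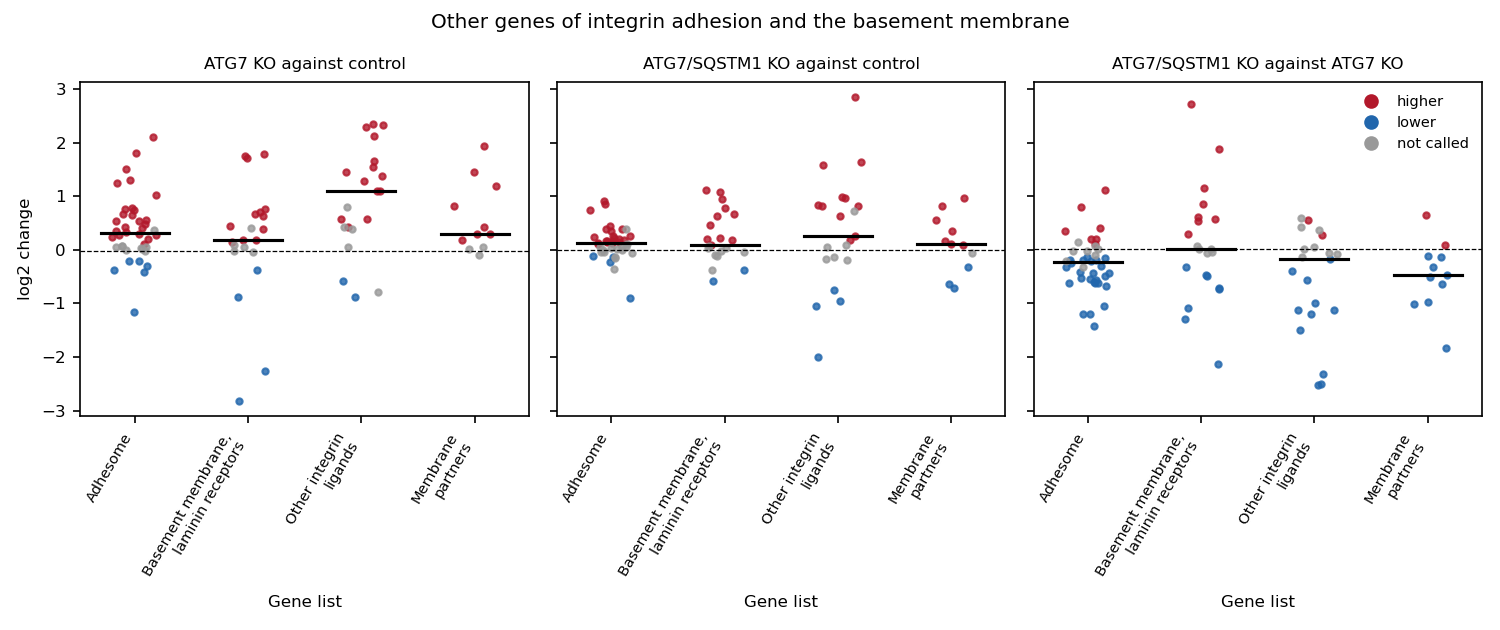
Log2 change of each tested gene of the 4 other lists in the 3 comparisons, coloured by call, with a black bar at the list's median. A dashed line marks the median of all tested genes, which was -0.02, -0.01 and 0.02 from left to right. Medians lie above 0 in ATG7 KO against control, highest for the integrin ligands at 1.10, and 3 of the 4 lie below 0 in ATG7/SQSTM1 KO against ATG7 KO.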

How the data were processed

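RNA-seq libraries were made from total RNA depleted of rRNA, with a strand-specific kit, per the labels' protocols. The submitters' processing notes name HISAT2 and hg38. No source used here gives the counting program or its use of strand. The authors deposited raw counts, as whole numbers for 67140 genes, and nothing in the values points to a normalization. Empty cells, 362598 in the library columns, were taken as 0 because no 0 is written there, and 1 unlabelled column and 1 row of column numbers were not used. Gene IDs were matched to GENCODE release 29 (GRCh38) for coordinates, exon overlaps and exon length, with 58503 matched.

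Grouping was by label, 3 libraries to a genotype. Nothing in the labels tells if replicate libraries are from independent cultures. Without that, p-values cover only sample-to-sample spread, possibly technical. Within a group, every pair of libraries varied beyond sampling noise (chi-square divided by its degrees of freedom, 4.47 to 7.03). The test was edgeR 4.0.16 in R 4.3.3: filterByExpr by group (minimum count 10) kept 18847 genes, TMM factors ran from 0.977 to 1.01, and the quasi-likelihood fit, in its robust form, used the 9 libraries together, which leaves 6 residual degrees of freedom. Variation between libraries beyond sampling noise was 6.39% as a coefficient of variation common to all genes, and may be technical or biological. The threshold was a Benjamini-Hochberg adjusted p under 0.05 over all tested genes. RPKM is scaled CPM divided by the length of the union of a gene's exons in kilobases.

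All members could be named with their values (some genes are not reported here), and from each list of other genes those among the 4 smallest p-values of a comparison could be named. The members, lists and markers were chosen with earlier results of these data known. Alternatives were other scalings, other filters, DESeq2 1.42.0, the 6 libraries compared alone, replicate number as a block, and leaving out each library in turn.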

Additional observations from a re-analysis of the deposited data

How the results depend on the processing

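Of 1522 values of the 96 log2 changes of members under 16 alternatives, 1476 kept their direction and their side of the threshold, 37 lost a call, 3 gained one and 6 changed sign, all 6 in values that had not been called. The count of members called in ATG7 KO against control ran from 22 to 24 (9801 to 10688 over all tested genes), in ATG7/SQSTM1 KO against control from 14 to 16 (6300 to 7281), and in ATG7/SQSTM1 KO against ATG7 KO from 24 to 26 (10471 to 11428). Changes of sign came from leaving out 1 library. Over those fits ITGB4 between the knockouts ran from -0.28 (without ATG7/SQSTM1 KO replicate 3) to 0.35, and was also below 0 without ATG7/SQSTM1 KO replicate 2 (-0.05) and ATG7 KO replicate 1 (-0.09). In ATG7 KO against control ITGAE ran from -0.11 to 0.017 (without ATG7 KO replicate 2) and LAMA2 from -0.13 (without ATG7 KO replicate 3) to 0.32. LAMC1 in ATG7/SQSTM1 KO against control ran from -0.0015 (without ATG7/SQSTM1 KO replicate 1) to 0.014. The 37 lost calls belong to 9 results, each given beside its gene, and the cause was not tested. Integrin membrane partners called lower in ATG7 KO against control numbered 1 with library totals alone, and those called higher in ATG7/SQSTM1 KO against ATG7 KO numbered 1 to 2 over the fits that left out a library. Libraries that share a replicate number did not deviate together more than others. Their 9 correlations ran from -0.0613 to 0.0234, against -0.0466 to 0.0527 for libraries with unlike numbers. The labels do not say whether the numbers pair the samples, and these correlations cannot settle it. With replicate number as a block, 24 members were called in ATG7 KO against control (of 10564 genes called), 15 in ATG7/SQSTM1 KO against control (of 7137) and 26 in ATG7/SQSTM1 KO against ATG7 KO (of 11262), and ITGAX alone lost a call. At about 1 CPM or less a library holds few counts, which limits ITGA1, ITGA2B, ITGA8, ITGA10, ITGAM, ITGAX, ITGB2, ITGB4, ITGB8 and LAMA2.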
